A study of Mus musculus with 8 samples.

Results

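The 8 genes Epb42, Sptb, Ank1, Slc4a1, Rhag, Rhd, Kel and Ermap, which encode proteins of the red cell membrane and of the skeleton beneath it, were examined in E10.5 mouse embryos, in tissue dissected from the right ventricle and outflow tract (OFT/RV). They were chosen by name, and where a gene had several transcripts, the one with the highest average count was used. The table held 20701 gene symbols, of which 13769 passed the filter on low counts, and all 8 genes were among those tested. Of the 8, Epb42 rose in Isl1 hypomorphic embryos at an adjusted p under 0.05, a call made as higher for 0.145% of all genes and lost here when CTRL replicate 1, 2 or 3 was left out. By the looser criterion of the study, 6 more were higher, against 2.27% of all genes, and Sptb did not differ beyond its error. Globin RNA took a larger share of the counts in 3 of the 4 hypomorphic libraries than in any control library, so the 8 genes were also compared with globin.

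To describe expression after reduction of the LIM-homeodomain factor Isl1, polyadenylated RNA had been sequenced from single C57BL/6 embryos. The 4 control embryos (CTRL) are labelled wild type. The other 4 (Isl1_hypo) are labelled Isl1 hypomorph (f;neo/f;neo in the study's own notation), a line with reduced rather than absent Isl1, in which embryos survive to birth. Each library came from 1 embryo, the tissue was taken whole, and no step that removes blood is described in the sources used here.

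The red cell membrane is a lipid bilayer tied to a protein network of spectrin and short actin filaments. Ankyrin holds spectrin to the anion exchanger band 3, and the Rh proteins and the protein made from Epb42 belong to the same complex, while other proteins join the network to the bilayer at the actin nodes. Loss of these links gives fragile red cells and inherited spherocytosis. At mid gestation the blood in the mouse heart carries mainly nucleated primitive red cells from the yolk sac, which still transcribe their genes and mature in the circulation.

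Because GATA-binding factors and CACCC-binding factors of the KLF family act at red cell genes, the promoter sequences of the 8 genes were read for their motifs. RefSeq windows of 250 bases before to 50 bases after the gene start, on a GRCm38 patch assembly, matched 6 of the 8 by symbol, and Ank1 and Slc4a1 had no entry. Each window was found at 1 place on its chromosome in mm9, the build of the counts, and the coordinates are those of mm9. The GATA motif was searched as AGATAA or TGATAA and the CACCC-type motif as CCNCNCCC, on both strands, and overlapping matches were counted. The part before the gene start that holds the matches is shown 5′ to 3′ on the strand of the gene, with capitals at GATA and CACCC-type matches. It ends at the base before the RefSeq start, except for Epb42, where it ends before the GENCODE start, 195 bases further upstream. In Rhag, Kel and Ermap the GENCODE start lies 23, 14 and 16 bases upstream of the RefSeq start, within the stretch shown.
Epb42, chr2:120862809-120862863, minus strand: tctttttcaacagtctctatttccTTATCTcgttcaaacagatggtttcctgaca
Rhag, chr17:40947968-40948097, plus strand: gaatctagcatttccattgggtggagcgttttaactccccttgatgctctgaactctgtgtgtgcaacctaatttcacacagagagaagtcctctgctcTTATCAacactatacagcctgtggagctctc
Rhd, chr4:134420321-134420450, plus strand: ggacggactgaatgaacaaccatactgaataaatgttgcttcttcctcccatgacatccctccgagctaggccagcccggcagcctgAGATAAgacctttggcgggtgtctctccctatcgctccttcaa
Kel, chr6:41654325-41654454, minus strand: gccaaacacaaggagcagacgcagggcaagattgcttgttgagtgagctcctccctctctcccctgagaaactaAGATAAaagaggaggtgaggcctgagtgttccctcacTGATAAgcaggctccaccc
Ermap, chr4:118862601-118862730, minus strand: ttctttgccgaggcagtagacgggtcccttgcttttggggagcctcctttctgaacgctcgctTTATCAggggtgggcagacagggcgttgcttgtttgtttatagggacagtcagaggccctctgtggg
Sptb, chr12:77811535-77811664, minus strand: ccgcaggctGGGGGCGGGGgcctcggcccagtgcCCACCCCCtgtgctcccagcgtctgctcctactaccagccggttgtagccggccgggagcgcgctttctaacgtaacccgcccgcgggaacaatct

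A GATA match lay in 5 of the 6 windows and was not found in that of Sptb. Counted from the RefSeq start, it began at base -31 of Rhag, -43 of Rhd, -67 of Ermap and -226 of Epb42. Kel had a pair of matches at -56 and -19. The RefSeq start of Epb42 lies 195 bases downstream of its GENCODE start, so its distance is not like the others. Among all 32851 windows, 18.6% held such a match. Counted by symbol, it was found in 21.0% of 27025 genes and in 6 of 9 globin genes. It lay in 3 of 7 other skeleton genes, 3 of 7 other surface protein genes, 1 of 9 channel and transporter genes and 1 of 13 paralogs of the 8 genes. The CACCC-type match is common, with 49.5% of all windows, and lay at base 3 after the start of Rhd and at -121, -119 and -96 in Sptb, where the first pair overlaps. The E-box CAGATG, or CATCTG on the other strand, was found in 17.2% of all windows and, among the 6, in Epb42 at -212 and -93. A match is a run of letters and was not measured as a bound site.

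**Figure D1:**
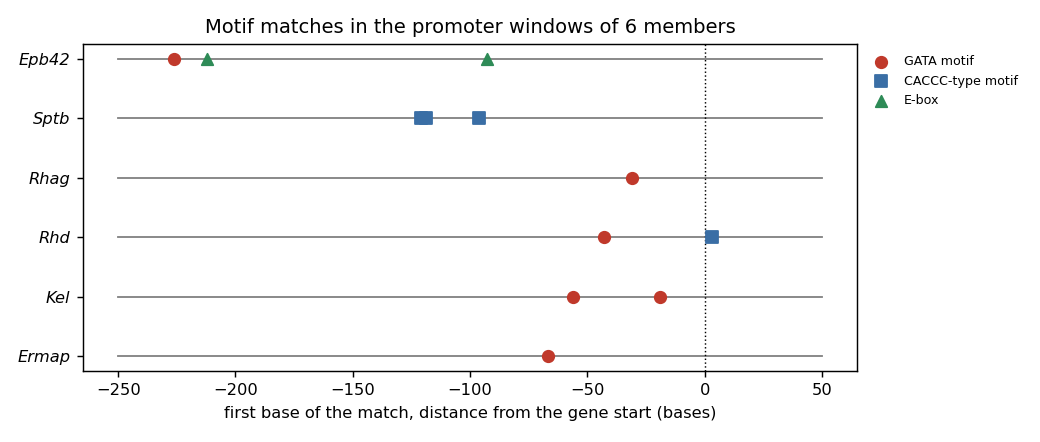
Start of each GATA, CACCC-type and E-box match as distance in bases from the gene start (dotted line) in the promoter windows of 6 genes, drawn as grey lines. GATA matches lie within 67 bases of the RefSeq start in Rhag, Rhd, Kel and Ermap, while Sptb has only CACCC-type matches. In Epb42 the match lies at -226, where the RefSeq start is 195 bases downstream of the GENCODE start.

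Total counts ranged from 29748458 to 46678973 in CTRL and from 18422245 to 33050298 in Isl1_hypo, with 1 transcript per gene. Isl1 was at 29.6, 61.5, 46.2 and 51.3 CPM (counts scaled to a common depth by the TMM method) in CTRL and at 12.7, 6.86, 7.71 and 11.4 CPM in Isl1_hypo, in replicate order, with every Isl1_hypo embryo under every CTRL embryo. Its log2 fold change was -2.29 (SE 0.256, adjusted p 0.0077 by the edgeR quasi-likelihood test). On the first principal component of the 1000 most variable genes, with 37.8% of the variance, Isl1_hypo replicate 3 lay at 72.0 and the other 7 libraries between -17.7 and 3.97. Markers of cardiomyocytes, summed over 6 genes, reached 31069 to 37962 CPM in CTRL and 33578 to 40663 CPM in Isl1_hypo. Of the 6 genes 3 had a positive log2 fold change, and 1, Nppa, named after its values were seen, passed the threshold at a log2 fold change of 1.13 (adjusted p 0.0303 in edgeR). Actc1 at 0.17 and Myl7 at 0.11 were also positive. The others were negative, Myh7 at -0.49 (unadjusted p 0.0020 in edgeR), Myh6 at -0.31 (unadjusted p 0.0396) and Tnnt2 at -0.18.

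Globin genes took 0.212%, 0.273%, 0.465% and 1.19% of the counts of the CTRL embryos, replicates 1 to 4, and 1.86%, 1.18%, 2.44% and 1.53% of those of the Isl1_hypo embryos. CTRL replicate 4 was thus level with Isl1_hypo replicate 2, and the other CTRL libraries lay under all Isl1_hypo libraries. The mean log2 share was 2.0 higher in Isl1_hypo, which did not pass an exact 2-sided permutation test (p = 0.0571). The embryonic genes Hbb-y, Hbb-bh1 and Hba-x gave 90.3% to 94.1% of all globin counts in every library. In bulk tissue, a different number of red cells and a different amount of RNA per red cell cannot be told apart.

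All 8 genes had a positive log2 fold change of Isl1_hypo over CTRL, with a median of 1.74, against 0.0057 for all genes tested. At an adjusted p under 0.05 (edgeR quasi-likelihood test, Benjamini-Hochberg over all genes), 1 of the 8 was higher and 0 were lower, where 0.145% of all genes were higher. By the criterion of the study, which asks for a log2 difference of over 0.58 in either direction and a p under 0.05 before adjustment, 7 of the 8 were higher and 0 lower. The same criterion took 2.27% of all genes as higher and 2.89% as lower. All Isl1_hypo libraries lay above all CTRL libraries for 4 of the 8, Epb42, Ank1, Rhag and Ermap, and for 4.06% of all genes. CTRL replicate 4, the CTRL library richest in globin, was the highest CTRL library for 7 of the 8, and Isl1_hypo replicate 3, the richest of its group, was the highest Isl1_hypo library for 6. How often each library was the highest over all genes was not counted, and Isl1_hypo replicate 3 lay apart on the first principal component. Without Isl1_hypo replicate 3 the median was 1.33 and 6 of the 8 met the criterion, as Rhd (1.28, unadjusted p 0.0573 in edgeR) no longer did. Without CTRL replicate 4 the median was 2.40 and 7 met it. An unadjusted p under 0.05 in edgeR was found for 1514 of 13909 genes without Isl1_hypo replicate 3 and 1414 of 13873 without CTRL replicate 4. The share of all genes past the criterion was not counted in these fits.

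**Figure D2:**
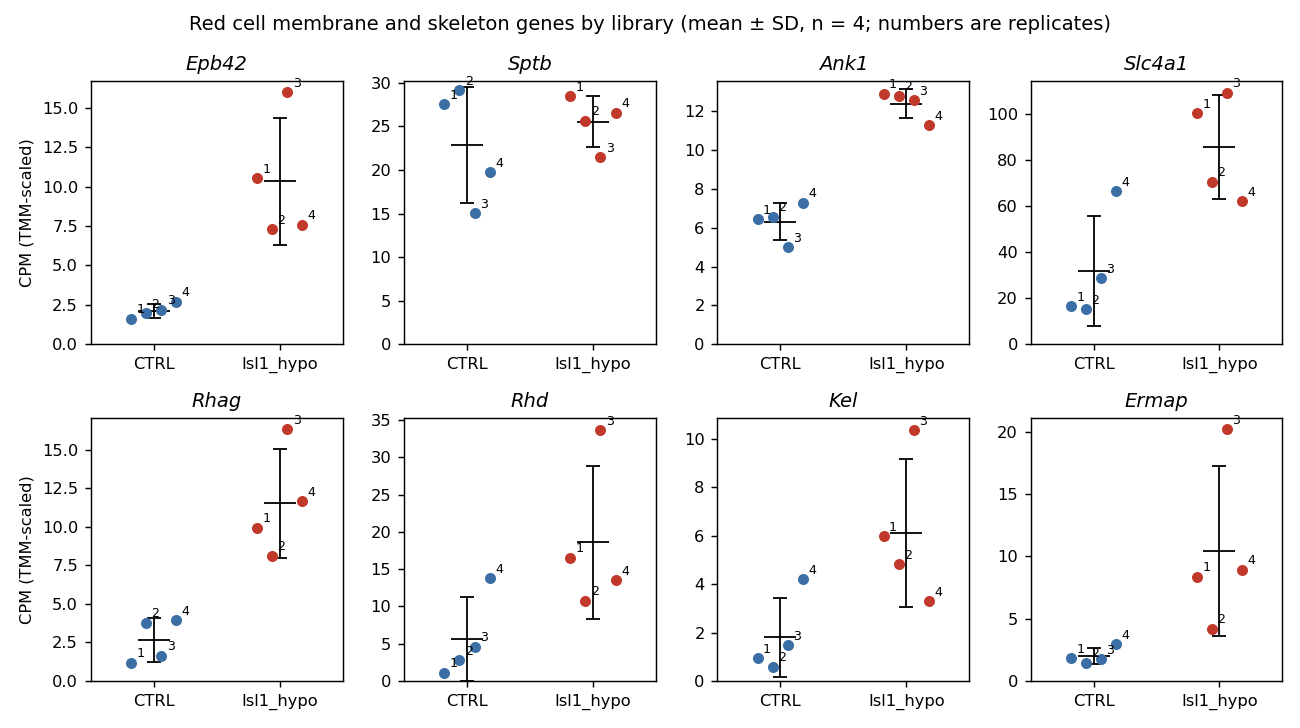
Level of each of the 8 genes in CPM (TMM-scaled, linear axes from 0) in every library of CTRL (blue) and Isl1_hypo (red), where small numbers are replicates and black bars are mean ± SD (n = 4). The groups are apart for Epb42, Ank1, Rhag and Ermap, and CTRL replicate 4 reaches into the Isl1_hypo range for Slc4a1, Rhd and Kel.

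Among the genes of the skeleton and its anchors, Epb42 and Ank1 were higher in every Isl1_hypo library and Sptb was not. Epb42 (chromosome 2, 120843627 to 120862808, minus strand) encodes a relative of the transglutaminases that has lost its enzyme activity and braces the contact of band 3 with ankyrin. It measured 1.63, 1.97, 2.19 and 2.69 CPM in the CTRL embryos (replicates 1 to 4) and 10.54, 7.31, 16.0 and 7.58 CPM in the Isl1_hypo embryos. The lowest Isl1_hypo library lay well above the highest CTRL library, and the CTRL libraries were close to each other. The mean rose from 2.12 ± 0.445 to 10.4 ± 4.04 CPM (SD, n = 4). On the log2 scale the difference was 2.28 (SE 0.306), with an adjusted p of 0.0172 in edgeR. Without Isl1_hypo replicate 3 it was 1.99 (adjusted p 0.0126), and the adjusted p passed 0.05 when CTRL replicate 1, 2 or 3 was left out, at 0.0694, 0.0727 and 0.0733.

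Ank1 (chromosome 8, 24085316 to 24260969, plus strand) encodes ankyrin-1, the adaptor between spectrin and band 3, and is also used in muscle and brain. It stood at 6.43, 6.57, 5.02 and 7.29 CPM in CTRL and at 12.9, 12.8, 12.6 and 11.3 CPM in Isl1_hypo. Both groups were tight and separate, and the Isl1_hypo library richest in globin was not the highest. The log2 fold change was 0.97 (SE 0.178), with an adjusted p of 0.0577 in edgeR that missed the threshold.

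The table held 11 transcripts of Ank1, which overlap, so that a read can be counted for several of them. In the 9 long transcripts of 6810 to 8321 bases, the ratio of the group means was 0.94 to 1.06 on the log2 scale and the groups did not overlap. The other 2 transcripts, of 2902 and 2951 bases, had ratios of 0.79 and 0.80, and their groups overlapped. The longer of these stood at 5.25, 3.395, 2.86 and 5.26 CPM in CTRL and at 6.57, 9.74, 8.19 and 4.601 CPM in Isl1_hypo. Here Isl1_hypo replicate 4 lay under CTRL replicates 1 and 4. Reads were counted without regard to strand, and the opposite strand of the Ank1 locus carries Gm15816, which had 40 to 111 counts per library, so their reads cannot be told apart where both overlap.

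Sptb (chromosome 12, 77681475 to 77811534, minus strand) encodes beta-spectrin, a long chain of the network, which muscle and brain also make. It measured 27.5, 29.1, 15.05 and 19.8 CPM in CTRL and 28.5, 25.7, 21.5 and 26.6 CPM in Isl1_hypo. The groups overlapped, and the library richest in globin in Isl1_hypo was the lowest of its group for Sptb. The means were 22.9 ± 6.62 and 25.5 ± 2.96 CPM, and the log2 fold change was 0.16 (SE 0.204, adjusted p 0.788 in edgeR).

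Slc4a1 (chromosome 11, 102210138 to 102227517, minus strand) encodes band 3, which exchanges chloride for bicarbonate and anchors ankyrin. It measured 16.6, 15.3, 28.7 and 66.3 CPM in CTRL and 100.1, 70.5, 109.1 and 62.1 CPM in Isl1_hypo. CTRL replicate 4 exceeded Isl1_hypo replicate 4, and the other CTRL libraries lay under the whole Isl1_hypo range. The mean was 31.7 ± 23.9 CPM in CTRL and 85.5 ± 22.7 CPM in Isl1_hypo. The log2 fold change of 1.43 (SE 0.411) met the criterion of the study, but its adjusted p was 0.213 in edgeR. Without CTRL replicate 4 it was 2.08, with an adjusted p of 0.0221.

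The pair of Rh proteins forms the Rh complex of the red cell surface. Rhag (chromosome 17, 40948075 to 40977703, plus strand) encodes the glycoprotein that carries ammonia through the membrane and without which Rh proteins do not reach the surface. Its levels were 1.18, 3.76, 1.64 and 3.93 CPM in CTRL and 9.94, 8.13, 16.3 and 11.7 CPM in Isl1_hypo. The groups were separate, although CTRL replicates 2 and 4 stood above the other CTRL libraries. The mean was 2.63 ± 1.42 CPM in CTRL and 11.5 ± 3.51 CPM in Isl1_hypo. The log2 fold change was 2.12 (SE 0.392), and its adjusted p was 0.0577 in edgeR.

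Rhd (chromosome 4, 134420451 to 134452087, plus strand) encodes the Rh blood group protein, for which the mouse has a single gene. It measured 1.12, 2.80, 4.57 and 13.7 CPM in CTRL and 16.5, 10.8, 33.6 and 13.5 CPM in Isl1_hypo. CTRL replicate 4 lay above Isl1_hypo replicates 2 and 4, so the groups overlapped. The mean was 5.56 ± 5.64 CPM in CTRL and 18.6 ± 10.3 CPM in Isl1_hypo. The log2 fold change was 1.73 (SE 0.617, adjusted p 0.304 in edgeR), and without CTRL replicate 4 it was 2.71 (adjusted p 0.0662).

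The remaining 2 genes encode other carriers of blood group antigens. Kel (chromosome 6, 41636329 to 41654338, minus strand) encodes the Kell protein, a zinc endopeptidase of the red cell surface that processes endothelins. It stood at 0.928, 0.590, 1.47 and 4.21 CPM in CTRL and at 5.97, 4.83, 10.4 and 3.29 CPM in Isl1_hypo. CTRL replicate 4 exceeded Isl1_hypo replicate 4, and the other CTRL libraries lay under all Isl1_hypo libraries. The log2 fold change was 1.75 (SE 0.578, adjusted p 0.286 in edgeR) and rested on 24 to 197 counts per library in CTRL. Without CTRL replicate 4 it was 2.62 (adjusted p 0.0653).

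Ermap (chromosome 4, 118848062 to 118862616, minus strand) encodes an adhesion protein of the butyrophilin family that carries the Scianna antigens. It measured 1.82, 1.45, 1.76 and 2.95 CPM in CTRL and 8.36, 4.197, 20.2 and 8.93 CPM in Isl1_hypo. The groups did not overlap, and Isl1_hypo replicate 3 was far above the others. The mean was 1.997 ± 0.656 CPM in CTRL and 10.4 ± 6.85 CPM in Isl1_hypo. Its log2 fold change of 2.38 (SE 0.441) was the highest of the 8 in this fit, close to Epb42 at 2.28 (SE 0.306), with an adjusted p of 0.0577 in edgeR. Without Isl1_hypo replicate 3 it was 1.84 (adjusted p 0.0605), under Epb42 at 1.99 and Rhag at 1.90. The exact permutation test of log2 CPM cannot give a p under 0.0286 with 4 against 4 libraries, and this value follows from the lack of overlap in Epb42, Ank1, Rhag and Ermap. The same exact test gave p = 0.0571 for Slc4a1 and Kel, 0.0857 for Rhd and 0.514 for Sptb.

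Levels were compared between genes per length, as RPKM, the reads per kilobase of transcript scaled to depth (mean ± SD, n = 4). In CTRL the order began with Slc4a1 at 4.29 ± 3.21, Rhd at 2.26 ± 2.29 and Sptb at 1.36 ± 0.404 RPKM. Rhag followed at 0.699 ± 0.376, Ank1 at 0.486 ± 0.0754 and Kel at 0.441 ± 0.403 RPKM, and Epb42 at 0.332 ± 0.0675 and Ermap at 0.270 ± 0.0882 RPKM came last. Neighbours in this order differed by less than the larger of their SDs, except Sptb and Rhag, which differed by more than either. In Isl1_hypo, Slc4a1 at 11.3 ± 2.92 and Rhd at 7.41 ± 3.95 RPKM again led, and Rhag came next at 2.998 ± 0.861 RPKM, apart from the genes on both sides by more than their SDs. Epb42 at 1.59 ± 0.592, Sptb at 1.49 ± 0.195, Kel at 1.47 ± 0.704 and Ermap at 1.37 ± 0.876 RPKM lay within their spread of each other. Ank1 was last at 0.934 ± 0.0601 RPKM. Sptb thus stood at the third place in CTRL and the fifth in Isl1_hypo, with about the same level in both.

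The genes differed in their span among the CTRL libraries, which all have the same genotype. Globin CPM spanned 5.89-fold from the lowest to the highest CTRL library. Rhd spanned 12.3-fold, Kel 7.13-fold, Slc4a1 4.34-fold and Rhag 3.32-fold. The span was 2.03-fold for Ermap, 1.94-fold for Sptb, 1.65-fold for Epb42 and 1.45-fold for Ank1. A span does not give the direction, and Sptb was higher in the CTRL libraries poorest in globin, replicates 1 and 2. For 2 of the 8, Epb42 and Rhd, the libraries stood in the same order as globin within each group, CTRL replicates 1 to 4 upwards and Isl1_hypo replicates 2, 4, 1 and 3 upwards. In CTRL Epb42 thus kept the order of globin over a far smaller span than Rhd. In Isl1_hypo globin spanned 2.15-fold, Epb42 2.19-fold and Rhd 3.13-fold. Among the other genes the Isl1_hypo span ran from 1.15-fold for Ank1 to 4.81-fold for Ermap.

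**Figure D3:**
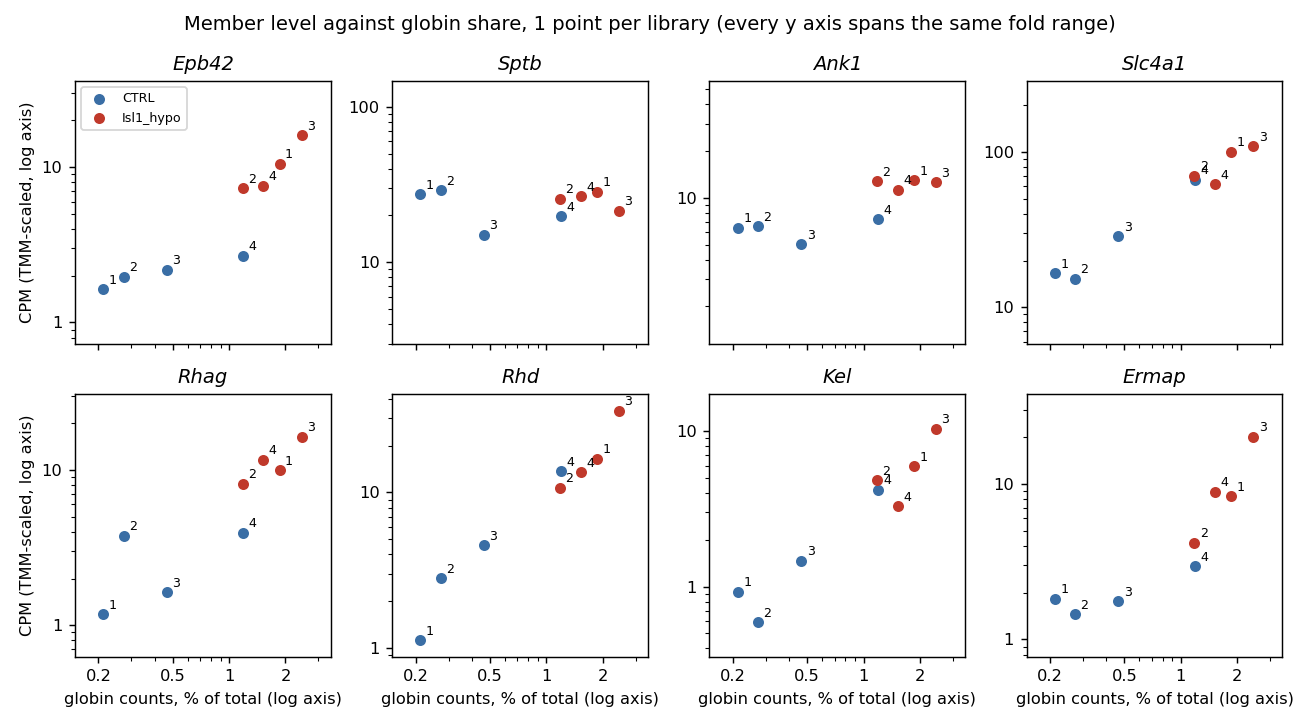
Level of each of the 8 genes (CPM, log axis) against the percentage of counts from globin genes (log axis), 1 point per library with its replicate number, CTRL in blue and Isl1_hypo in red. Slc4a1, Rhd and Kel of CTRL replicate 4 lie among the Isl1_hypo libraries at a like globin share of 1.18% to 1.19%, while Epb42, Ank1 and Rhag of that library lie lower.

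CTRL replicate 4 and Isl1_hypo replicate 2 had nearly the same globin level, with a ratio of 0.998, and were set side by side after their values were seen. This compares 2 libraries, not the conditions, and the exact 95% intervals cover counting error only. Epb42 was 2.71-fold higher in the Isl1_hypo library (interval 2.16 to 3.42), Rhag 2.07-fold (1.69 to 2.53) and Ank1 1.76-fold (1.51 to 2.05). Ermap had a ratio of 1.42 (1.10 to 1.84) and Sptb one of 1.30 (1.18 to 1.44). Slc4a1 at 1.06 (1.003 to 1.13) and Kel at 1.15 (0.912 to 1.44) were near 1, and Rhd was lower at 0.783 (0.679 to 0.901).

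Expressed per 10000 globin counts, the groups overlapped for all 8 genes. Sptb was among them, at a log2 fold change of -2.23 with globin counts as library size. The share of all genes that overlap in this way was not counted, so the overlap is not read as a result about the 8. Epb42 had 8.08, 7.31, 4.67 and 2.26 counts per 10000 globin counts in the CTRL embryos and 5.66, 6.16, 6.27 and 4.91 in the Isl1_hypo embryos. Its ratio was thus lowest in CTRL replicate 4 and varied little in Isl1_hypo. Rhd had 5.54, 10.4, 9.77 and 11.6 per 10000 globin counts in CTRL and 8.87, 9.06, 13.2 and 8.74 in Isl1_hypo, and the Isl1_hypo libraries other than replicate 3 lay close together. Slc4a1 had 82.2, 56.7, 61.4 and 55.8 per 10000 globin counts in CTRL and 53.8, 59.4, 42.7 and 40.2 in Isl1_hypo. Sptb had 136.2, 108.2, 32.2 and 16.6 per 10000 globin counts in CTRL and 15.3, 21.6, 8.41 and 17.2 in Isl1_hypo. It varied widely within CTRL alone and was highest in the libraries poorest in globin.

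With the summed globin counts as library size, the median log2 fold change of the 8 genes was -0.008, against -2.26 for all genes tested. Epb42 was at 0.05 (SE 0.765), Rhag at -0.02 (SE 0.746), Rhd at 0.09 (SE 0.702), Kel at 0.01 (SE 0.846) and Ermap at 0.09 (SE 0.773) on the log2 scale. These standard errors are wide, and a difference of about 1 on the log2 scale in either direction would lie within 2 of them. They come from a fit that estimates variation in part over all genes, and are not the spread of each gene's own ratio. Per 10000 globin counts, Rhd was at 9.32 ± 2.62 in CTRL and 9.96 ± 2.15 in Isl1_hypo, and Epb42 at 5.58 ± 2.65 and 5.75 ± 0.618 (SD, n = 4). Slc4a1 was at -0.38 (SE 0.652) and Ank1 at -1.28 (SE 0.691, adjusted p 0.0681 in edgeR). Only Sptb passed, at -2.23 (SE 0.684, adjusted p 0.0022 in edgeR), in a fit where 93.0% of all genes were called lower. Against globin, 5 of the 8 therefore stood within 0.1 of no difference, while Sptb stood near the median of all genes.

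With the globin level as a covariate beside the group, 5 of the 8 genes kept a positive log2 fold change. Epb42 was at 1.47 (SE 0.477, unadjusted p 0.0115 in edgeR) and Ank1 at 0.86 (SE 0.309, unadjusted p 0.0187), and these 2 of the 8 were higher at an unadjusted p under 0.05, where 2.2% of all genes were. Rhag at 1.30 (SE 0.641), Ermap at 1.16 (SE 0.699) and Sptb at 0.65 (SE 0.314) did not reach it. Slc4a1 was at -0.026 (SE 0.243), Kel at -0.013 (SE 0.527) and Rhd at -0.51 (SE 0.360). No gene of the whole table had an adjusted p under 0.05 in this edgeR fit, and 528 had an unadjusted p under 0.05. The covariate differs between the groups, so that the parts of globin and genotype in these values cannot be told apart.

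**Figure D4:**
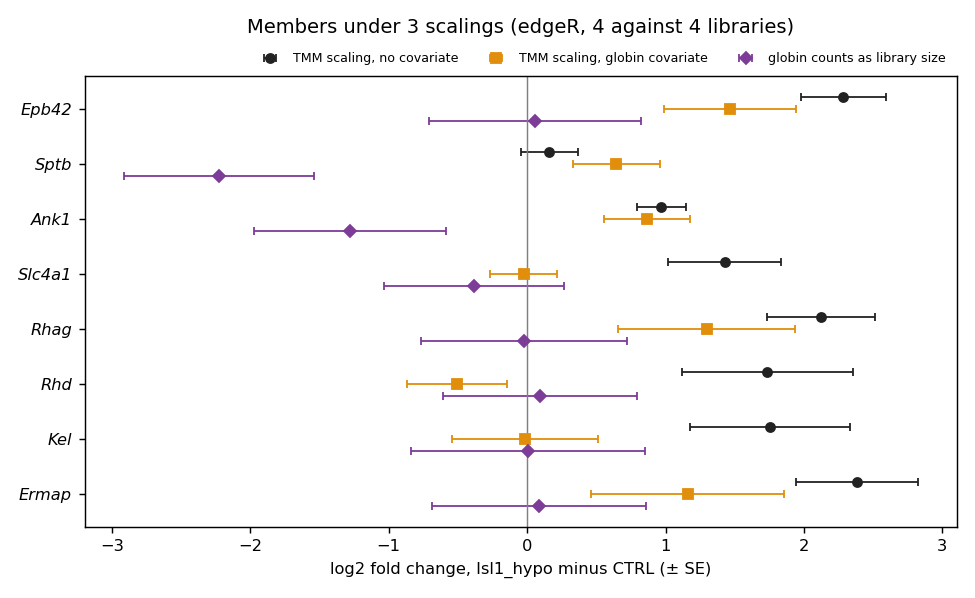
Log2 fold change (Isl1_hypo minus CTRL, ± SE, edgeR, 4 against 4 libraries) of the 8 genes with TMM scaling (black), with the globin level added as a covariate (orange) and with globin counts as library size (purple). Slc4a1, Rhd and Kel move to or below 0 with the covariate, Epb42 drops from 2.28 to 1.47, and Sptb and Ank1 drop to -2.23 and -1.28 when scaled to globin.

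Other genes of the red cell membrane were compared as 3 lists. Several stood far above the 8 genes in CTRL, such as Bsg at a mean of 1258 CPM, Tmod1 at 448 CPM and Add3 at 294 CPM. The part of red cells in such levels was not tested. Of 8 other skeleton genes, 7 had a positive and 1 a negative log2 fold change, 0 had an adjusted p under 0.05, and 3 had an unadjusted p under 0.05 in edgeR. Of all genes tested, 11.9% had an unadjusted p under 0.05 in either direction, against which this count and those of the lists that follow are read. The median log2 fold change of the skeleton genes was 0.077, and 1 met the criterion of the study. Add2, the beta chain of adducin, which caps the actin filaments, stood at 2.50, 0.443, 3.05 and 3.21 CPM in CTRL and at 9.61, 5.58, 4.71 and 5.95 CPM in Isl1_hypo (log2 fold change 1.48, SE 0.496, adjusted p 0.29 in edgeR). All Isl1_hypo libraries lay above all CTRL libraries. The actin-capping gene Tmod1 (-0.20) and Epb41 (0.02), which joins spectrin to actin, differed by less than 2 standard errors.

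Of 11 other surface proteins, 9 had a positive and 2 a negative log2 fold change, with a median of 0.14, 0 at an adjusted p under 0.05 and 2 at an unadjusted p under 0.05 in edgeR. Only Icam4, a ligand of integrins, met the criterion. It stood at 1.09, 0.443, 0.596 and 2.84 CPM in CTRL and at 4.18, 2.59, 7.24 and 4.497 CPM in Isl1_hypo, where CTRL replicate 4 lay above Isl1_hypo replicate 2. Its log2 fold change was 1.89 (SE 0.575, adjusted p 0.242 in edgeR). Slc14a1 at 1.57 (SE 0.771) and Cldn13 at 1.45 (SE 0.866) were positive too but did not meet the criterion. Each had 1 high library, Isl1_hypo replicate 1 at 11.3 CPM and Isl1_hypo replicate 3 at 6.26 CPM. Ackr1, at a like CTRL level, was at -0.10. Of 9 channels and transporters, the sign was positive for 7 and negative for 2, with a median of 0.16, 0 at an adjusted p under 0.05 and 3 at an unadjusted p under 0.05. The potassium channel gene Kcnn4 was the only one of these past the criterion, at 1.21 (SE 0.461, adjusted p 0.327 in edgeR), and its highest value of 16.4 CPM was in Isl1_hypo replicate 3. The water channel gene Aqp1 was at -0.02 and the glucose transporter gene Slc2a1 at 0.16 on the log2 scale, the latter at a mean of 2079 CPM in CTRL.

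Close relatives of the 8 genes that act mainly outside red cells were compared as well. Of 17 such genes listed, 12 were tested, of which 5 had a positive and 7 a negative log2 fold change, with a median of -0.31, 0 at an adjusted p under 0.05 and 5 at an unadjusted p under 0.05 in edgeR. The ankyrin genes Ank3 and Ank2 were at -0.51 (SE 0.113, adjusted p 0.106) and -0.29, and Sptbn1, the general beta-spectrin gene, was at -0.33. Ece1, which like Kel encodes an endopeptidase that processes endothelins, was at -0.44. Mme, a further relative of Kel, was the only one past the criterion, at 0.64 (SE 0.171, adjusted p 0.189 in edgeR). The Rh relative Rhbg had 0 counts in CTRL and Rhcg a mean of 0.069 CPM there, and neither was tested.

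**Figure D5:**
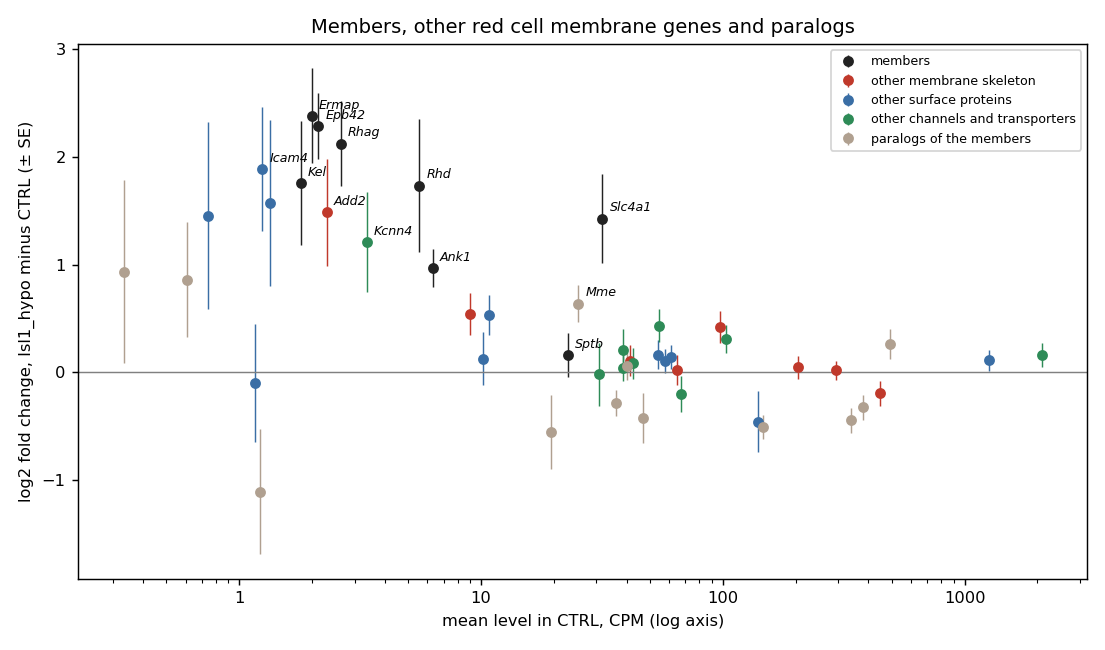
Log2 fold change (Isl1_hypo minus CTRL, ± SE, edgeR) against the mean CTRL level in CPM (log axis) for the 8 genes (black, labelled), other membrane skeleton genes (red), surface proteins (blue), channels and transporters (green) and paralogs (brown), with names at those past the criterion of the study. Icam4, Add2 and Kcnn4 lie among the 8 genes at a CTRL level under 4 CPM, and genes above 30 CPM in CTRL lie between -0.51 and 0.43 except Slc4a1.

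Markers of other blood and tissue cells were summed in each library beside these results. Megakaryocytes share a progenitor with red cells. Their 6 markers reached 42.7 to 83.9 CPM in CTRL and 62.1 to 204.5 CPM in Isl1_hypo, and 6 of 6 had a positive log2 fold change, 0 of them with an adjusted p under 0.05 in edgeR. The 7 leukocyte and macrophage markers lay at 6.97 to 13.8 CPM in CTRL and at 1.80 to 13.2 CPM in Isl1_hypo, and 1 of the 6 tested had a positive log2 fold change, with 0 at an adjusted p under 0.05 in edgeR. The 8 liver and yolk sac markers lay at 13.6 to 29.98 CPM in CTRL and at 21.7 to 45.5 CPM in Isl1_hypo, and Fgb and Serpina1a had 0 counts in every library. The 2 tested, Ttr at 0.24 and Trf at 0.41 on the log2 scale, had unadjusted p of 0.627 and 0.193 in edgeR. Endothelial markers lay at 579 to 674 CPM in CTRL and at 454 to 576 CPM in Isl1_hypo, and 5 of 6 had a negative log2 fold change, 0 of them with an adjusted p under 0.05 in edgeR. Those with the smallest p, chosen after their values were seen, were Pecam1 at -0.58 (unadjusted p 0.0022) and Cdh5 at -0.54 (unadjusted p 0.0069). The part of these cells in the levels of the 8 genes was not tested.

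The genes most like the 8 were sought by the median Pearson correlation of log2 CPM with them over the 8 libraries, among 12632 other genes with a mean of at least 1 CPM. These points share library, depth and genotype, and the values are descriptive. Among the 10 highest were Hemgn at 0.937, a nuclear protein gene of blood cells, Wwox at 0.934 and Fam210b at 0.928. Gfi1b, a repressor needed for red cells and megakaryocytes, stood at 0.926, as did the globin genes Hba-a1 and Hba-a2, whose counts were identical. Snx24 followed at 0.922 and Hba-x at 0.913. With the group means removed, Hemgn was at 0.864 and Wwox at 0.777. These genes were picked by a value that includes the within-group part.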

How the data were processed

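Libraries were grouped by their labels into 4 CTRL and 4 Isl1_hypo, each from a single embryo. The authors aligned reads with STAR to mm9 and counted exon reads per RefSeq transcript with HOMER on both strands; the deposited counts are whole numbers without normalization. The authors made the deposited RPKM values from these counts (edgeR), and they served here only for levels per length. Columns of the authors' DESeq2 comparison (mean signal, log2 fold change, its error, statistic and p-values) were not used, and 0 columns of per-sample values were left aside. The names STAR, DESeq2 and edgeR are also in the submitters' processing notes.

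Of 31507 transcripts, 1 per symbol was kept, by the highest mean count. Counts were filtered (filterByExpr), scaled (TMM) and compared in edgeR 4.0.16 (glmQLFit and glmQLFTest, the quasi-likelihood test; R 4.3.3) without covariates, with Benjamini-Hochberg adjustment over 13769 genes. The common biological coefficient of variation was 26.4%. Log2 CPM had a prior count of 2. For ratios to globin, summed globin counts replaced library sizes. Single values were compared by an exact permutation test over 70 assignments. DESeq2 1.42.0 and limma 3.58.1 (voom with sample quality weights) served as alternatives, beside other size factors, no filter, the longest transcript, a replicate block, a globin covariate, removal of globin genes, and each library left out in turn. The fit was tested on simulated data. Positions are from the GENCODE annotation of mm9.

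The 8 genes and all lists were chosen with earlier results of these data known. By rule, the 8 genes, list members, globin genes, Isl1 and the 10 genes most like the 8 were named; 2 of these genes are not reported here and were left out of the lists.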

Additional observations from a re-analysis of the deposited data

Results flagged for a closer look

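In groups of 4 libraries, the gap between the extreme value and its neighbour was set against the whole range (Dixon's test). Of 34 groups examined, 1 had a library that stood off, where chance gives 1.7. It was Isl1_hypo replicate 3 for Rhd per 10000 globin counts, at 13.2, against 8.74 to 9.06 in the other Isl1_hypo libraries. The same embryo was at 72.0 on principal component 1 and had the highest share of globin, 2.44%. No explanation was tested.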

How the results depend on the processing

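The causes of the shifts given here were not tested. Of the 8 genes, 1 had an adjusted p under 0.05, and this became 4 with DESeq2 (Epb42, Ank1, Rhag and Ermap), 3 with limma-voom and sample quality weights (Epb42, Ank1 and Rhag), 3 without the filter (Epb42, Rhag and Ermap), 0 with the replicate block, 0 with the globin covariate, and 0 to 2 when 1 library was left out. It was 0 without CTRL replicate 1, 2 or 3 and 2 without CTRL replicate 4 (Epb42 and Slc4a1) or Isl1_hypo replicate 2 (Epb42 and Ermap). Over all genes the count of 37 became 319 with DESeq2, 134 with limma-voom and sample quality weights, 47 without the filter, 0 with the replicate block (1582 at an unadjusted p under 0.05) and 4 to 48 when 1 library was left out. The count of 7 past the criterion of the study became 2 with the globin covariate and 6 to 7 when 1 library was left out. The globin covariate also took Slc4a1 to -0.026, Rhd to -0.51 and Kel to -0.013, the direction opposite to the fit without it.

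Whether replicate numbers pair the embryos is not given by the labels and is unknown. Deviations of same-numbered libraries from their group means correlated at 0.02, -0.02, 0.01 and 0.02. With the replicate block, Epb42 was at 2.23 (adjusted p 0.075) and Isl1 at -2.29 (adjusted p 0.0722 in edgeR). With the globin covariate Isl1 was at -2.55 (adjusted p 0.632). In the other lists and paralogs, 4 genes met the criterion, 2 with limma-voom and sample quality weights, 1 with the globin covariate and 2 to 7 when 1 library was left out (2 without Isl1_hypo replicate 3, 7 without CTRL replicate 4 or Isl1_hypo replicate 1). The globin difference of 2.0 ranged from 1.67 to 2.50 when 1 library was left out, with exact permutation p of 0.0571 to 0.114. With 4 against 3 libraries this test cannot give a p under 0.0571. The median of the 8 genes relative to globin ranged from -0.23 to 0.04. Some of the 8 genes had few counts, such as Kel with 24 to 197 per CTRL library, and the effect of depth on them was not tested.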
